A study of Rattus norvegicus with 17 samples.

Results

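The genes described here are the nuclear genes that supply mitochondria with their respiratory chain, ATP synthase, metabolite carriers, import machinery and ribosomes, as far as rat arrays of vessel endothelium measured them. They were taken as every array probe whose accession matched a rat symbol beginning Nduf, Sdh, Uqcr, Cox (nuclear subunits and assembly factors of complex IV), Atp5, Slc25, Tomm, Timm, Mrpl or Mrps. This gave 65 genes, read by 68 probes, of 2876 genes with a matched symbol and 9879 probes with a value in the deposited table. By role they were 10 probes for complex I, 3 for complex II, 2 for complex III, 11 for complex IV, 14 for ATP synthase, 8 for carriers, 9 for import, 10 for the large subunit of the mitochondrial ribosome and 1 for its small subunit.

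The study created an arteriovenous fistula in rats by joining the superficial epigastric vein to the common femoral artery, as in access for dialysis, and captured luminal endothelium by laser 13 to 14 days later. Each of 17 regions was hybridized to its own array with 1 colour (Cy5), after 10 microdissected samples had been combined and 50 ng of RNA amplified. The stenotic branch (n = 3) is a side branch of the vein that drained the fistula and had a narrowed lumen. The NIH vein (n = 5) is epigastric vein that carried arterial flow and had neointimal hyperplasia, in which cells and matrix build up inside the vessel lining. The femoral artery (n = 3) is the artery of the fistula, free of pathology. The venous-flow vein (n = 6) is epigastric vein beyond a ligation, under venous flow and also free of pathology. Its source label names ligation surgery where the others name fistula surgery, while the protocol says that every operation included the ligation. All groups therefore come from operated animals, and no unoperated vessel was analysed here. The sources used here do not give strain, sex or age. The design text names 6 rats for 17 regions and no label ties a region to a rat, so some regions share an animal. All p-values below treat regions as independent. They are too small where regions of a group share a rat, and can be too large where regions of compared groups do. Which of these holds is not known.

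Complexes I to IV of the inner mitochondrial membrane pass electrons to oxygen and, complex II excepted, pump protons, and ATP synthase uses the resulting gradient to make ATP. Most subunits are coded in the nucleus, made in the cytosol and brought in by the TOM and TIM translocases, while mitochondrial ribosomes make the few subunits coded by mitochondrial DNA. Endothelial cells are known for making much of their ATP by glycolysis and for using mitochondria in signalling and biosynthesis as well.

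The data exist in a pair of forms, scanner output and a table of normalized log2 values, and these do not assign the arrays to the same samples. The 5 NIH vein arrays carry the same sample in both forms. The other 12 scanner arrays match a column that the value table gives to another sample. The arrays named stenotic branch in the scanner files are venous-flow vein 1 to 3 in the table, those named femoral artery are venous-flow vein 4 to 6, and the 6 named venous-flow vein are the table's stenotic branch and femoral artery. The sources used here do not settle which form is right, so values are given for both, and the comparison of the NIH vein with all other 12 arrays is the only one that both forms split in the same way. On 11 arrays the deposited background is the average of 2 other arrays to within 0.001, while 0 of the member signals were filled in this way. By scanner names these are all femoral artery and venous-flow vein arrays and stenotic branch 2 and 3. All NIH vein arrays and stenotic branch 1 have their own background. The NIH vein against the femoral artery or the venous-flow vein therefore also sets own against filled background. What part this had in any difference was not tested, Ndufv1 included. Median signal above background per array ran between 28.5 (femoral artery 1) and 80.9 intensity units (NIH vein 3), and over the members alone between 31.7 and 223.7 on the same arrays. On the 11 arrays, femoral artery 1 among them, this is signal above the filled background. Levels below are log2 intensities after normalization, whose floor was 5.65 and whose median over all probes was 6.12, against 6.80 over the members. Of the members, 13 averaged within 0.5 of the floor, so differences of these may be understated.

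Stenotic branch 3 and NIH vein 1 stood apart from the other arrays. Their rank correlation with each other was 0.92 over all probes, while their median with the other arrays was 0.37 and 0.36. Of the probes above 7 in the median of the other arrays, 25.5% (459 of 1798) lay below 6 on stenotic branch 3 and 26.4% (475 of 1797) on NIH vein 1. The same share was 9.19% on femoral artery 1 and at most 2.39% on the remaining arrays. Values without stenotic branch 3 and NIH vein 1 are given for Ndufv1, for counts of called members and for medians that changed sign. Differences of other members include these arrays unless stated otherwise.

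Of the 65 symbols, 57 matched a promoter window (250 bases before to 50 after the start) in the RefSeq table for GRCr8. In these windows 14 members (24.6%) held the NRF1 motif (GCGCA, any base, then GCGC) on either strand, against 8.39% of the 2337 array symbols with a window and 4.25% of all 33469 windows. The ETS motif CCGGAAG, read by the GABP factor among others, was in 19 members (33.3%), against 14.0% and 8.75%. Both motifs belong to factors known for acting on nuclear genes of the respiratory chain. The ERR motif TCAAGGTCA was in 2 members (3.51%), against 0.385% and 0.433%, and these were Sdhd and Timm8b, whose opposed windows share 195 bases and so the same match. Their ETS matches lie in the shared bases too, so the ETS count above holds both genes for the same matches. The general CCAAT motif was in 20 members (35.1%), against 40.8% and 37.5%. Median GC content was 58.7% in the members and 58.7% in the array symbols, against 51.7% in all windows. These shares are descriptions and no test was made. Shown are Ndufv1, the member that passed the test below, with no match to NRF1, ETS or ERR (chr1:210734842-210735141, minus strand), Sdha with 3 NRF1 matches starting 89, 46 and 1 bases before the start (chr1:30764303-30764602, plus strand), Slc25a3 with an ETS match 129 bases before it (chr7:27506578-27506877, minus strand) and Tomm20 with an NRF1 match 104 and an ETS match 28 bases before it (chr19:71832371-71832670, minus strand). Capitals mark the NRF1 and ETS matches.
Ndufv1: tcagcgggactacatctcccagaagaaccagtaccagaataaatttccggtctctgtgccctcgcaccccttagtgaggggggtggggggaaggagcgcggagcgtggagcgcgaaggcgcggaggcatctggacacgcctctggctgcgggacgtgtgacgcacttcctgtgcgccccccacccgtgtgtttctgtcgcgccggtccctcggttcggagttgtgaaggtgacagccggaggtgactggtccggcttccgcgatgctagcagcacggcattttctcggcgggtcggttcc
Sdha: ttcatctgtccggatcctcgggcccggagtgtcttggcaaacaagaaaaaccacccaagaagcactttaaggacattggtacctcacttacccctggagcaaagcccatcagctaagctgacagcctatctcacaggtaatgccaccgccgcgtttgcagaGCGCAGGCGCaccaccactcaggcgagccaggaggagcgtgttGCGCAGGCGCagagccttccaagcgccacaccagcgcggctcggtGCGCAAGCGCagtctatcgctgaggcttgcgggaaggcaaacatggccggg
Slc25a3: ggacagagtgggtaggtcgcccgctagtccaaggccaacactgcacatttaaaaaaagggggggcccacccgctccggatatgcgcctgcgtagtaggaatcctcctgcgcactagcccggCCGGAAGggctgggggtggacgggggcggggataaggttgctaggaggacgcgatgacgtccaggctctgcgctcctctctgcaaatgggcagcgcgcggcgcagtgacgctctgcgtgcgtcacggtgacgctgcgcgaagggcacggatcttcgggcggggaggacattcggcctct
Tomm20: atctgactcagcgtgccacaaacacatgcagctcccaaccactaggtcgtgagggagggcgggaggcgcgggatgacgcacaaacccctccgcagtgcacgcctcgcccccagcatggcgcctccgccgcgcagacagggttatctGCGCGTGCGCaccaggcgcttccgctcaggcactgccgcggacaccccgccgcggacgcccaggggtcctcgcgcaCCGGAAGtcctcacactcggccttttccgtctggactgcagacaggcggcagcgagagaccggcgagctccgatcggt

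Across all 17 arrays the members did not vary as a block. The median correlation between pairs of member probes was 0.087, a description over arrays that share normalization and differ in signal. For 10 members the median on the 15 other arrays exceeded 8, without those near the floor on stenotic branch 3 and NIH vein 1. These 10 followed each other with a median correlation of 0.81. They were picked by these same values, and no such correlation was computed for other probes, so it only describes them. Their mean level was 8.76, 9.83 and 10.54 in the stenotic branch, 10.15, 9.32, 10.05, 9.58 and 8.82 in the NIH vein, 7.57, 8.77 and 8.68 in the femoral artery, and 9.40, 9.77, 8.26, 8.45, 10.38 and 9.13 in the venous-flow vein. The 4 groups overlapped, and femoral artery 1, which also had the lowest signal above background, was the lowest array. What part signal strength had in this was not tested.

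**Figure D1:**
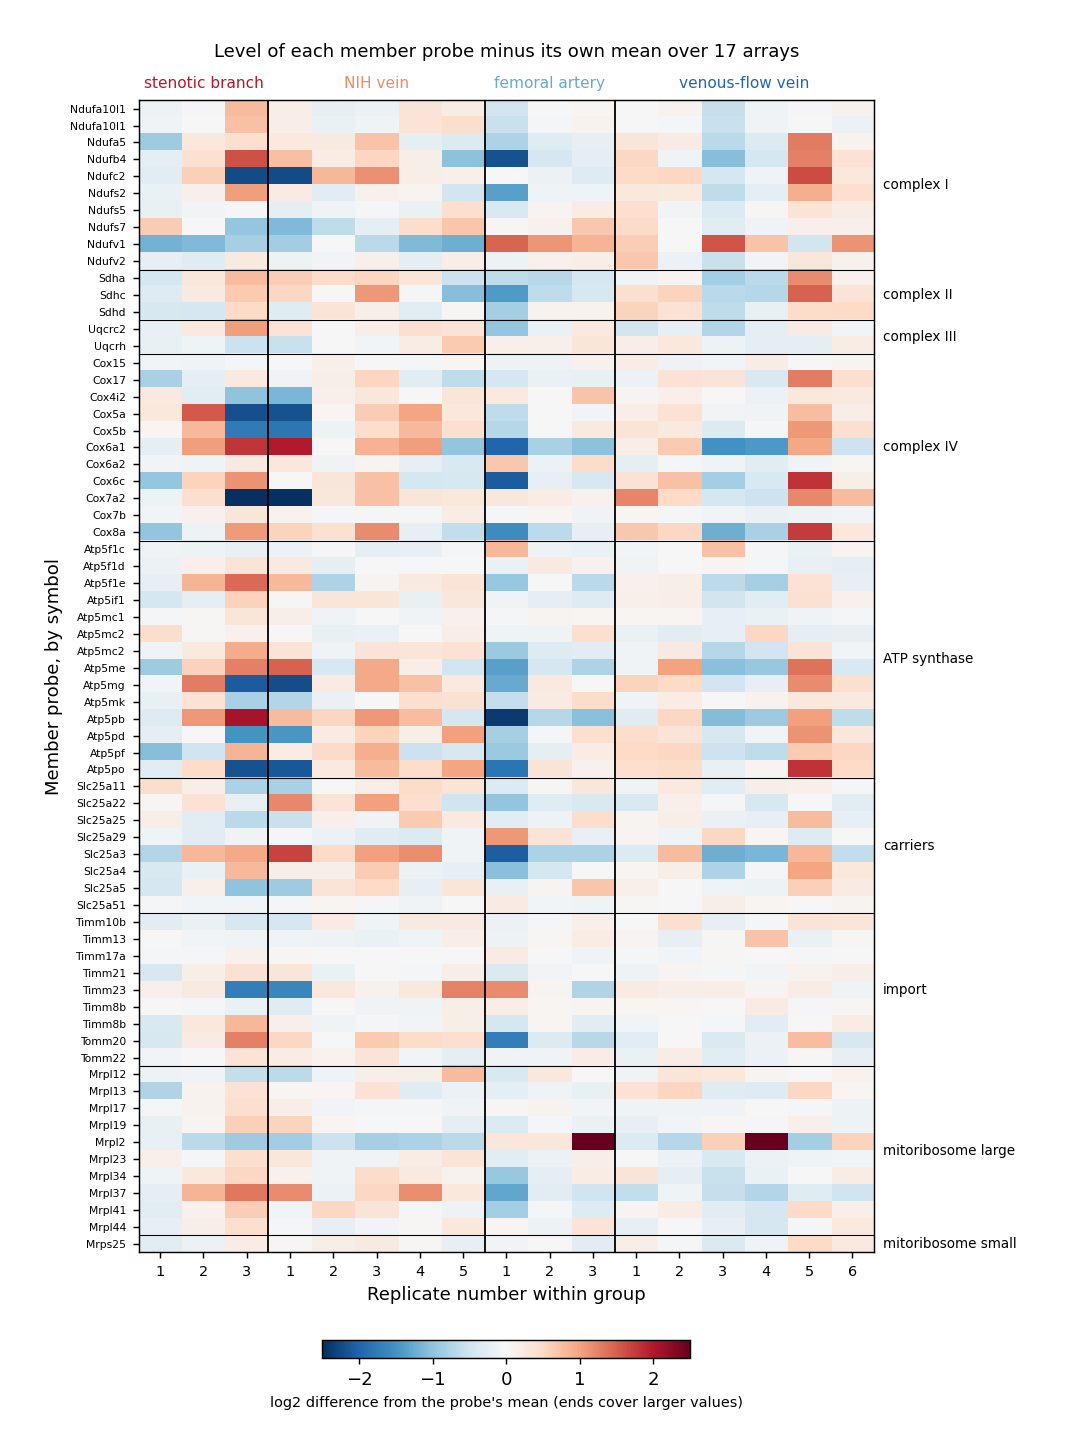
Level of each of the 68 member probes (rows, by role) on each of the 17 arrays (columns, by group and replicate) in the scanner files, as log2 difference from the mean of the probe. Stenotic branch 3 and NIH vein 1 share dark blue cells at Cox5a, Cox7a2, Atp5mg and Atp5po, femoral artery 1 is blue at most bright members, and Ndufv1 is red in the femoral artery and blue in the stenotic branch.

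Ndufv1, the flavoprotein subunit through which complex I takes electrons from NADH, was lower in both lesion groups than in the femoral artery in the scanner files, and it was the only member to pass the test in any of the 7 comparisons in either form. Its log2 level was 5.72, 5.79 and 6.06 in the stenotic branch, 6.03, 6.88, 6.22, 5.79 and 5.68 in the NIH vein, and 8.35, 8.0 and 7.75 in the femoral artery. In the venous-flow vein it ran between 6.43 and 8.46 with a median of 7.55. Every femoral artery value lay above every stenotic branch and NIH vein value, and the lowest venous-flow vein value lay below the highest NIH vein value.

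Group means were 5.86 ± 0.18 in the stenotic branch, 6.12 ± 0.47 in the NIH vein, 8.03 ± 0.30 in the femoral artery and 7.49 ± 0.74 in the venous-flow vein (SD, n = 3, 5, 3 and 6). Ndufv1 fell by 2.18 ± 0.42 (SE) on the log2 scale in the stenotic branch relative to the femoral artery (limma, adjusted p = 0.0252). It fell by 1.91 ± 0.38 in the NIH vein relative to the femoral artery (limma, adjusted p = 0.0214). These p-values over regions may be too small for the reason given above. Since the stenotic branch and NIH vein means lie within 0.5 of the floor, the size of these differences may be understated. In bulk samples fewer cells that express a gene and less RNA per cell cannot be told apart.

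Relative to the venous-flow vein the test was missed: the difference was -1.63 ± 0.37 for the stenotic branch (adjusted p = 0.0558, limma) and -1.37 ± 0.31 for the NIH vein (adjusted p = 0.0902, limma). The stenotic branch and the NIH vein differed by -0.27 (95% interval -1.07 to 0.54), and the femoral artery and the venous-flow vein by 0.55 (-0.24 to 1.33).

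The value table placed the low Ndufv1 readings elsewhere. Its levels were 7.28, 5.95 and 7.86 in the stenotic branch, 5.38, 6.53, 5.66, 5.00 and 4.80 in the NIH vein, and 6.56, 8.34 and 7.38 in the femoral artery. In the venous-flow vein they were 4.87, 4.99 and 5.42 for replicates 1 to 3, and 8.22, 7.84 and 7.55 for replicates 4 to 6. The NIH vein was thus low in both forms, while the other low readings belonged to the stenotic branch in the scanner files and to venous-flow vein 1 to 3 in the table, which are the same 3 arrays.

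With the names of the table, the difference was -0.40 for the stenotic branch (adjusted p = 1.0) and -1.95 for the NIH vein (adjusted p = 0.449), each against the femoral artery by limma. Against the venous-flow vein it was 0.55 for the stenotic branch (adjusted p = 0.923, limma), the opposite direction to the scanner files, and -1.01 for the NIH vein (adjusted p = 0.746, limma).

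The calls also rested on single arrays and settings. For the NIH vein against the femoral artery the call was lost without NIH vein 4 (-1.83, adjusted p = 0.0627), without femoral artery 1 (-1.75, adjusted p = 0.147) and without femoral artery 3 (-2.05, adjusted p = 0.0597), and it remained with stenotic branch 3 and NIH vein 1 both left out (-1.89, adjusted p = 0.0467), all by limma. For the stenotic branch against the femoral artery it was lost with both of these left out (-2.28, adjusted p = 0.0874) and without any of stenotic branch 2, stenotic branch 3 or femoral artery 1, 2 or 3, where the difference lay between -2.32 and -2.02 with adjusted p between 0.0509 and 0.117 (limma). Median scaling in place of quantile normalization ended both calls (-1.45 and -1.66, adjusted p = 0.0627 and 0.139, limma, for the NIH vein and the stenotic branch).

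Over the 17 arrays 124 of the other 9878 probes (1.26%) correlated with Ndufv1 above 0.9, and 0 of the other 67 member probes did, where the share of all probes would give 0.84. The difference between the NIH vein and the femoral artery, where Ndufv1 was the lowest member, reached 1.06 for Ndufb4, an accessory subunit of the membrane arm (adjusted p = 0.262, limma). Mrpl2, of the large ribosomal subunit, lay close to Ndufv1 with -1.88 and was not called. In the value table Mrpl2 was the lower of the pair, with -1.99 against -1.95.

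**Figure D2:**
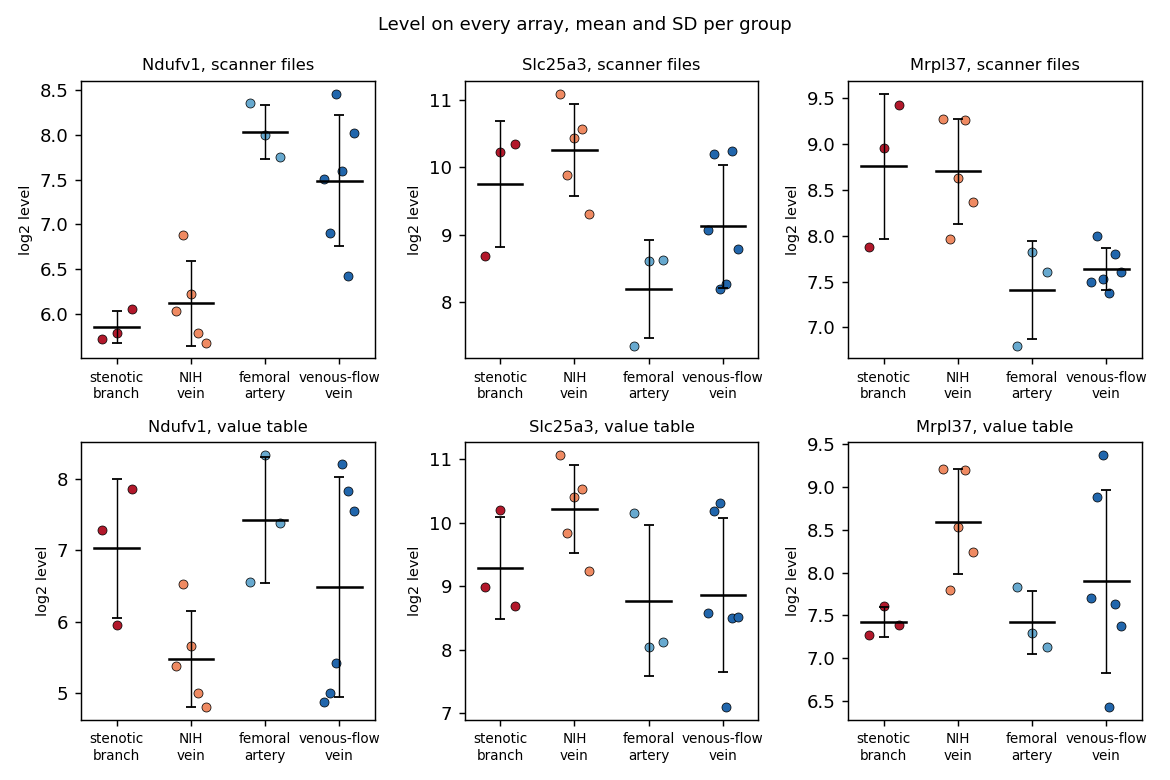
Log2 level of Ndufv1, Slc25a3 and Mrpl37 (columns) on every array by group, with mean and SD per group, in the scanner files (top row) and in the value table with its own sample names (bottom row). In the top row Ndufv1 has its highest mean in the femoral artery and its lowest in the stenotic branch, and in the bottom row 3 venous-flow vein arrays lie below 5.5.

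The NIH vein against the other 12 arrays asks how vein with neointimal hyperplasia differed from all other sites, and its split is the same in both forms. No member was called in the scanner files, where 0.132% of all probes were (limma, adjusted p under 0.05). At an unadjusted p under 0.05 there were 4 members (5.88%), against 12.5% of all probes. The value table called 0 members with a background of 0.0911%, and 4 members (5.88%) at an unadjusted p, against 12.7%. At an unadjusted p the members' shares were below those of all probes in both forms. The median difference was 0.05 over the members and 0.01 over all probes. A higher mean in the NIH vein was found for 46 of 68 members, against 54.3% of all probes. The 4 members were the carriers Slc25a22 and Slc25a3, the ribosomal protein Mrpl37 and, in the other direction, Ndufv1.

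Slc25a3 carries phosphate into the matrix, where ATP synthase uses it. Its level was 11.09, 9.88, 10.43, 10.57 and 9.31 in the NIH vein, and between 7.35 and 10.35 with a median of 8.74 on the other 12 arrays. All 5 NIH vein values lay above that median, and the sets overlapped. The difference was 1.21 ± 0.46 (SE) with an adjusted p of 0.366 (limma), and 1.27 in the value table.

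Slc25a22 is a mitochondrial glutamate carrier. Its level was 7.95, 7.06, 7.76, 7.17 and 6.24 in the NIH vein, against 5.75 to 7.10 with a median of 6.51 on the other 12 arrays. NIH vein 1, 3 and 4 exceeded every other array, and NIH vein 5 lay below the median of the others. The difference was 0.69 ± 0.23 (adjusted p = 0.366, limma), and 0.85 in the value table (adjusted p = 0.355).

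Mrpl37, a protein of the large mitoribosomal subunit, measured 9.28, 7.97, 8.63, 9.26 and 8.37 in the NIH vein, and between 6.80 and 9.43 with a median of 7.70 on the other arrays. Its NIH vein values all lay above that median. The difference was 0.84 ± 0.34 (adjusted p = 0.366, limma). Stenotic branch 3, one of the arrays that stood apart, was the highest array.

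For Ndufv1 the same comparison gave -1.09 ± 0.45 (95% interval -2.05 to -0.14, adjusted p = 0.367, limma). Mrpl2, another protein of the large subunit, differed by -1.04 ± 0.56 (adjusted p = 0.468, limma). Its levels were 5.78, 6.11, 5.82, 5.86 and 5.98 in the NIH vein. On the other 12 arrays it was 9.50 on femoral artery 3 and 9.40 on venous-flow vein 4, and at most 7.24 on the rest.

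In the other roles no named member came nearer to the threshold. Cox6a1, the widely expressed isoform of a complex IV subunit, had the highest mean of that complex and differed by 0.82 ± 0.59 (adjusted p = 0.633, limma). Its level was 12.22, 10.23, 11.10, 11.29 and 9.25 in the NIH vein, against 8.25 to 12.03 with a median of 9.85 on the other arrays, and these ranges overlapped. Atp5pb, the b subunit of the ATP synthase stalk, differed by 0.78 ± 0.55 (adjusted p = 0.624, limma). Tomm20, an import receptor of the outer membrane, differed by 0.59 ± 0.33 (adjusted p = 0.498, limma).

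Sdha, the catalytic flavoprotein of complex II, differed by 0.39 ± 0.30 (adjusted p = 0.658, limma). Uqcrc2, a core protein of complex III, differed by 0.35 ± 0.23 (adjusted p = 0.600, limma). Mrps25, the small-subunit protein measured here, differed by 0.06 ± 0.12 (adjusted p = 0.883, limma). A few further members were named for the highest mean of their role, and their differences were 0.18 for Atp5f1e, the epsilon subunit of ATP synthase, 0.17 for Ndufb4 and 0.15 for Sdhc, a membrane anchor of complex II.

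**Figure D3:**
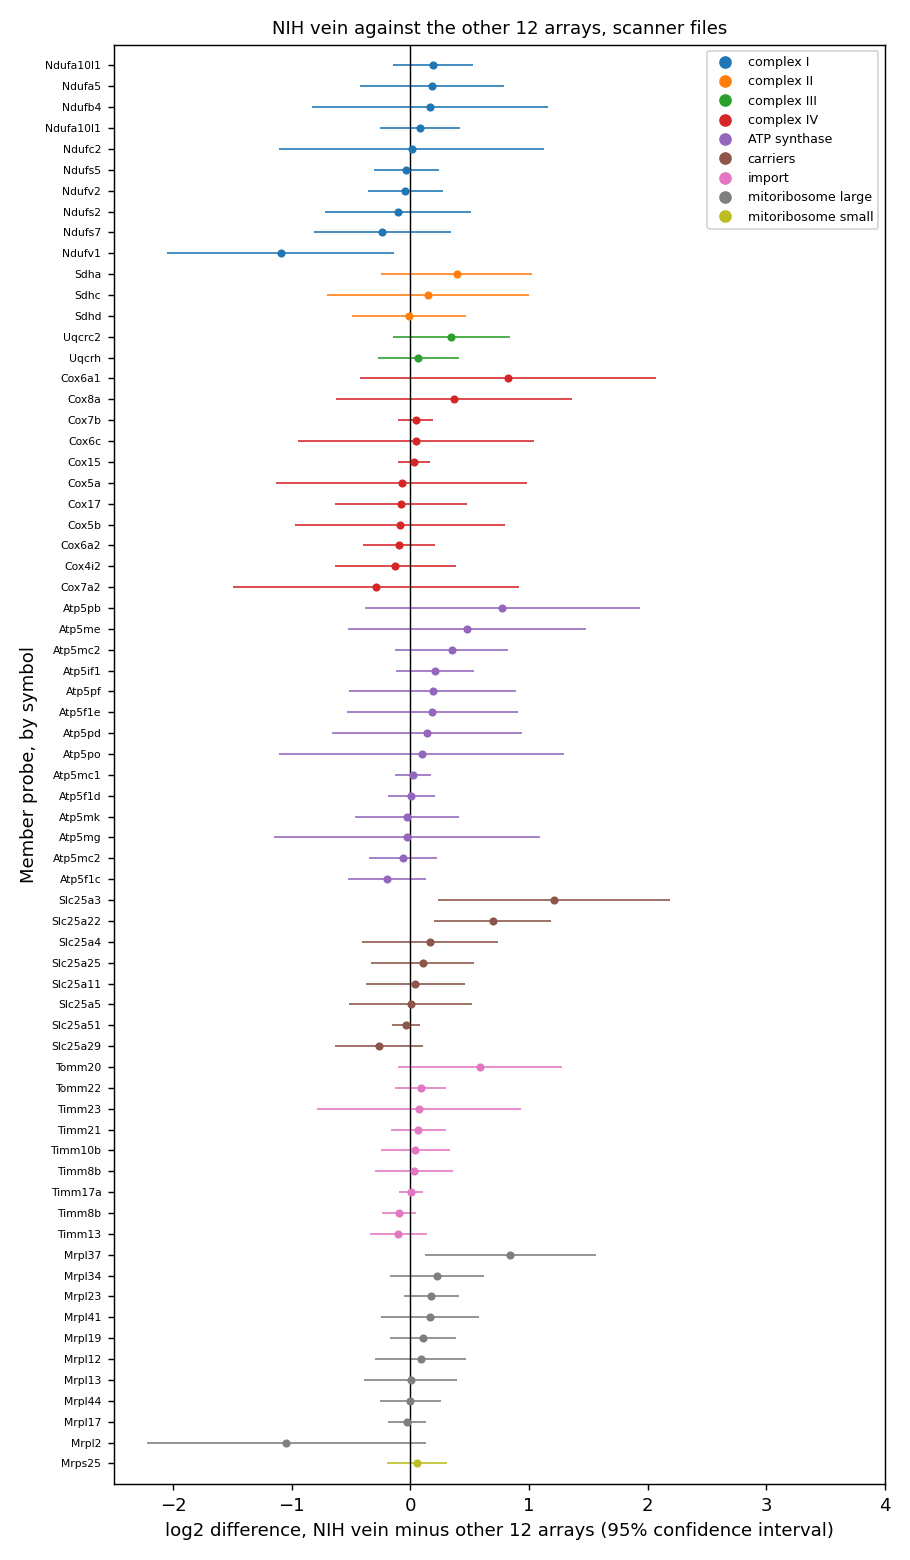
Log2 difference of each member probe, NIH vein minus the other 12 arrays, with its 95% confidence interval, coloured by role (scanner files). The intervals of Slc25a3, Slc25a22 and Mrpl37 lie above 0 and that of Ndufv1 below 0 before adjustment, and all others cross 0.

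The stenotic branch and the NIH vein against the femoral artery compare both lesion sites with lesion-free artery after fistula surgery, unpaired by animal. Each called 1 member, Ndufv1 (1.47%), where 1.86% of all probes were called for the stenotic branch and 2.32% for the NIH vein. At an unadjusted p under 0.05 there were 11 members (16.2%) against 23.0% of all probes for the stenotic branch, and 12 (17.6%) against 24.8% for the NIH vein. The value table called 0 members in both, with a background of 0.192% for the stenotic branch and 0.0% for the NIH vein. At an unadjusted p it gave 4 members (5.88%) in each, against 4.39% and 10.8% of all probes. The share of members called was near or below that of all probes in each form. These comparisons share their femoral artery arrays, and the p-values over regions may be too small here too.

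Behind Ndufv1 the members of smallest p were higher in the lesion groups and missed the threshold. Of the members with an unadjusted p under 0.05, 8 of 11 were higher for the stenotic branch and 8 of 12 for the NIH vein. The rest, Ndufv1 among them, were lower. Atp5pb measured 9.28, 10.69 and 11.66 in the stenotic branch, 10.39, 10.14, 10.69, 10.38 and 9.16 in the NIH vein, and 7.21, 8.90 and 8.56 in the femoral artery. All lesion values lay above all femoral artery values. The difference was 2.32 ± 0.66 for the stenotic branch (adjusted p = 0.0837, limma), and 0.55 in the value table. It was 1.93 ± 0.59 for the NIH vein (adjusted p = 0.078, limma).

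Tomm20 measured 7.65, 8.25 and 9.31 in the stenotic branch, 8.58, 8.07, 8.71, 8.52 and 8.47 in the NIH vein, and 6.33, 7.72 and 7.36 in the femoral artery. The NIH vein values all lay above those of the femoral artery, while stenotic branch 1 lay below femoral artery 2. The NIH vein difference was 1.33 ± 0.37 (adjusted p = 0.0681, limma), and 0.64 in the value table. Mrpl37 measured 7.88, 8.96 and 9.43 in the stenotic branch and 6.80, 7.82 and 7.60 in the femoral artery, with no overlap. Its difference from the femoral artery was 1.35 ± 0.40 in the stenotic branch (adjusted p = 0.0892, limma) and 1.30 ± 0.36 in the NIH vein (adjusted p = 0.0675, limma). In the value table these differences of Mrpl37 were 0.01 and 1.17.

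Slc25a3 and Slc25a22 were 2.07 ± 0.57 and 1.05 ± 0.31 higher in the NIH vein relative to the femoral artery, with adjusted p of 0.0681 and 0.0746 (limma). Femoral artery 1 was the lowest array for Atp5pb, Tomm20, Mrpl37, Slc25a3 and Slc25a22, and it had the lowest signal above background of all arrays. With only the probes of above-median mean level tested, Ndufv1, Slc25a3, Mrpl37, Tomm20, Slc25a22 and Atp5pb were called for the NIH vein, and Ndufv1 alone for the stenotic branch. These were 10.9% and 1.82% of the 55 member probes tested, against 13.2% and 4.25% of all probes tested there. Without stenotic branch 1, 6 members (8.82%) were called for the stenotic branch, which added Mrpl37, Atp5pb, Timm8b, Tomm20 and Atp5f1e to Ndufv1, and the share of all probes called was 5.40%, against 1.86% with that array.

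By role, the median differences between the NIH vein and the femoral artery were 0.19 for complex I, 0.85 for complex II, 0.20 for complex III, 0.10 for complex IV, 0.34 for ATP synthase, 0.05 for carriers, 0.05 for import and 0.20 for the large ribosomal subunit, against 0.02 over all probes. The 3 complex II members all had higher means in the NIH vein, and none passed the test (smallest adjusted p = 0.198, limma). These values are from the scanner files. In the value table the medians by role, in the same order, were 0.25, 0.41, 0.45, 0.05, 0.15, 0.12, 0.04 and 0.21, against 0.07 over all probes.

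The stenotic branch and the NIH vein against the venous-flow vein set lesion sites against vein outside the arterial flow. No member was called in the scanner files for the stenotic branch, where 0.405% of all probes were, or for the NIH vein, where 0.0405% were (limma). At an unadjusted p under 0.05 there were 8 members (11.8%) against 17.2% of all probes for the stenotic branch, and 5 (7.35%) against 16.2% for the NIH vein. The value table called 0 members in either, with a background of 0.172% for the stenotic branch and 0.0% for the NIH vein. There, at an unadjusted p, the stenotic branch had 9 members (13.2%) against 6.32% of all probes, and the NIH vein 2 (2.94%) against 6.3%.

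Mrpl37 was 1.12 ± 0.34 higher in the stenotic branch (adjusted p = 0.142) and 1.06 ± 0.29 higher in the NIH vein (adjusted p = 0.139) than in the venous-flow vein by limma. Its venous-flow vein values ran between 7.38 and 8.0 with a median of 7.57. Stenotic branch 1 and NIH vein 2 lay within that range and all other lesion arrays above it. The stenotic branch difference was -0.47 in the value table, the opposite direction.

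Mrpl17, also of the large ribosomal subunit, had levels between 5.77 and 6.32 on all arrays, close to the floor. It differed by 0.23 ± 0.09 between the stenotic branch and the venous-flow vein (adjusted p = 0.204, limma), and by -0.27 in the value table. Slc25a22 differed by 0.65 ± 0.25 between the NIH vein and the venous-flow vein (adjusted p = 0.221, limma).

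The median over the members changed sign between the forms for stenotic branch minus venous-flow vein, and also for stenotic branch minus NIH vein (-0.02 in the scanner files and 0.12 in the value table). For stenotic branch minus venous-flow vein it was -0.08 in the scanner files, with 30 of 68 higher in the stenotic branch (53.7% of all probes), and 0.31 in the value table, with 49 of 68 higher (43.1% of all probes). The medians over all probes were 0.02 and -0.04. Single arrays turned these signs too. In the scanner files the median for stenotic branch minus venous-flow vein was 0.16 without stenotic branch 1 and 0.03 without venous-flow vein 5, and that for stenotic branch minus NIH vein was 0.05 without stenotic branch 1. Of the 9 members with an unadjusted p under 0.05 in the table, 8 were higher in the stenotic branch there. These included Cox8a, a small subunit of complex IV, with 1.37, Ndufa5, an accessory subunit of complex I, with 0.90, Cox17, a copper chaperone of complex IV assembly, with 0.90, and Sdhd, the other membrane anchor of complex II, with 0.83. The scanner files gave -0.21, -0.22, -0.57 and -0.29 for these 4 genes. Atp5f1d, the delta subunit of ATP synthase, was the ninth, with -0.38 in the table and 0.18 in the scanner files. These 5 genes were chosen after their values were seen, and the smallest adjusted p of any member in this comparison of the table was 0.504 (limma).

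**Figure D4:**
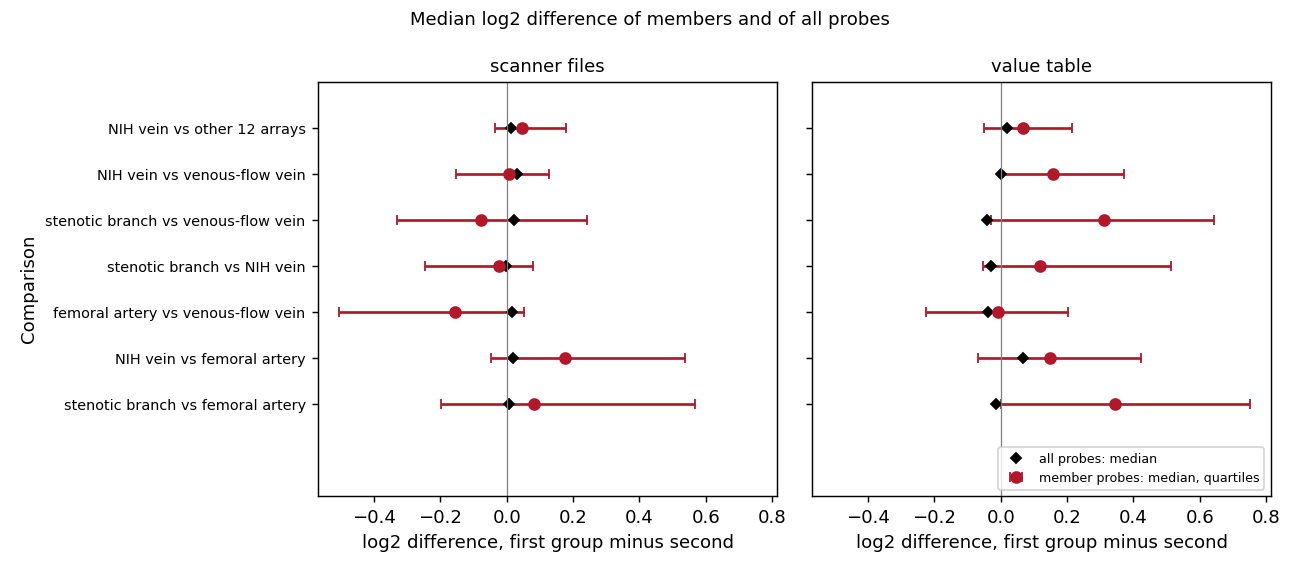
Median log2 difference (first group minus second) of the member probes with their quartiles and of all probes for the 7 comparisons, in the scanner files (left) and the value table (right). The members' median for stenotic branch minus venous-flow vein is -0.08 on the left and 0.31 on the right, while all-probe medians stay near 0.

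The stenotic branch against the NIH vein compares both lesion sites with each other. In the scanner files 0 members were called (0.0911% of all probes, limma), and 0 reached an unadjusted p under 0.05, against 3.59% of all probes. The value table called 0 (0.283% of all probes), and 3 (4.41%) reached an unadjusted p under 0.05, against 7.24%. The members of smallest p were Mrpl17 with 0.18 ± 0.09, Timm10b, a small chaperone of the intermembrane space, with -0.31 ± 0.17, and Uqcrh, the hinge protein of complex III, with -0.32 ± 0.21, all with an adjusted p of 1.0 (limma). These differences were -0.11, 0.26 and 0.01 in the value table. For Ndufv1 the table gave 1.55, where the scanner files gave -0.27.

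The femoral artery against the venous-flow vein compares both pathology-free vessels. In the scanner files 0 members and 0.0% of all probes were called (limma), and 2 members (2.94%) reached an unadjusted p under 0.05, against 4.92% of all probes. The value table called 0 (0.0% of all probes), and 0 reached an unadjusted p under 0.05, against 1.61%. Cox6a2, the heart and skeletal muscle isoform of the subunit that Cox6a1 also codes, measured 7.48, 6.65 and 7.26 in the femoral artery, against 6.54 to 6.82 with a median of 6.71 in the venous-flow vein. Femoral artery 1 and 3 lay above that range and femoral artery 2 within it. The difference was 0.45 ± 0.17 (adjusted p = 0.863, limma), and -0.38 in the value table.

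Tomm20 was -0.85 ± 0.35 and Sdhc -1.05 ± 0.49 in the same comparison, each with an adjusted p of 0.863 (limma). In the value table Tomm20 and Sdhc differed by 0.17 and 0.05. The median over the members was -0.15 in the scanner files and -0.01 in the table, and 20 and 33 of 68 were higher in the femoral artery, against 53.9% and 42.8% of all probes.

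The arrays that stood apart split the members. On stenotic branch 3 and NIH vein 1, 8 of the 29 members whose median elsewhere exceeded 7 lay below 6.1 on both arrays (27.6%), against 513 of 1815 among all probes (28.3%), so the members took part at the rate of the whole array. These 8 were chosen by their values. Cox7a2, a complex IV subunit, measured 5.91 on stenotic branch 3 and 5.89 on NIH vein 1, where its median on the other 15 arrays was 8.82. Atp5po, which links the stalk of ATP synthase to its head, measured 5.88 and 5.93 on these arrays, against 8.47. The others were Cox5a and Cox5b of complex IV, Atp5mg and Atp5pd of ATP synthase, Ndufc2 of complex I and Timm23, the channel protein of the inner membrane translocase.

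Other bright members were high on the same arrays. Cox6a1 measured 12.03 on stenotic branch 3 and 12.22 on NIH vein 1, against a median of 9.99 on the other 15 arrays. Atp5pb measured 11.66 and 10.39, against 9.28. Atp5me, the e subunit of ATP synthase, measured 11.12 and 11.32, against 9.45. Subunits of the same complex thus lay at opposite ends on these arrays. Among the 8 members near the floor, which were chosen by these arrays, the median correlation was 0.86 over the 17 arrays. Over the other 15 arrays it was 0.60.

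**Figure D5:**
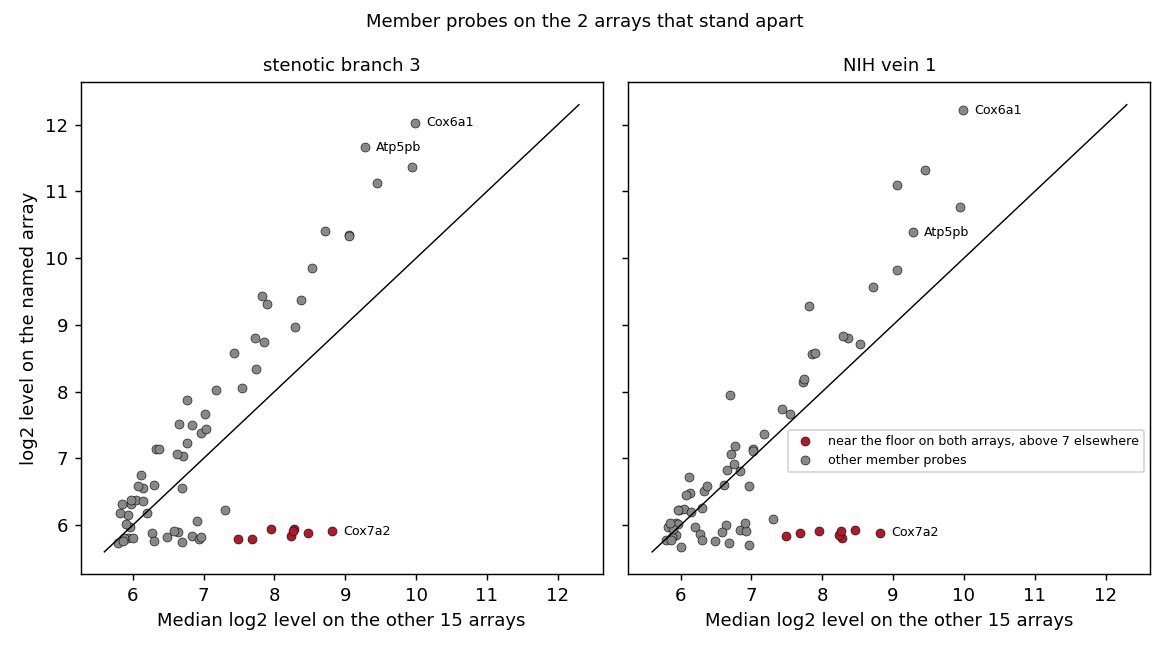
Log2 level of each member probe on stenotic branch 3 (left) and NIH vein 1 (right) against its median on the other 15 arrays, with the line of equality. The 8 red points lie near 5.9 on both arrays although their medians elsewhere exceed 7, while Cox6a1 and Atp5pb lie above the line.

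Ndufa10l1, Atp5mc2 and Timm8b had a pair of probes each, and these were set side by side. The pair for Ndufa10l1, named for its likeness to a complex I accessory subunit, correlated at 0.95 over the 17 arrays. The pair for Atp5mc2, a gene for the c subunit of ATP synthase, correlated at -0.06, and one of its probes stayed low, at most 6.56 on any array. The pair for Timm8b, a small import chaperone, correlated at -0.55, with one probe between 5.68 and 6.19. No probe sequences were used, so which transcripts each probe reads is not known here.

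Other genes of mitochondrial and energy metabolism were taken from lists, and are read against the 0.0% to 2.32% of all probes called per comparison. With the same fit, 1 of 11 measured glycolysis genes was called in 1 of the 7 comparisons, and 0 of 11 in the citric acid cycle, 0 of 11 in fatty acid oxidation, 0 of 5 in mitochondrial translation, 0 of 5 in redox defence, 0 of 4 each in dynamics, chaperones and cytochrome c with VDAC, and 0 of 3 in mitochondrial biogenesis were called in any. The called gene was Slc16a3, a lactate exporter, which rose by 2.17 ± 0.50 in the stenotic branch relative to the femoral artery (8.86 against 6.70, adjusted p = 0.0432, limma), and was -0.30 in the value table (adjusted p = 1.0). Of these lists, the smallest p for the NIH vein against the other 12 arrays was that of Gpx1, a glutathione peroxidase, with -1.12 ± 0.27 (10.64 against 11.76, adjusted p = 0.16, limma). Pc, pyruvate carboxylase, had -1.38 ± 0.64 (7.06 against 8.44, adjusted p = 0.389, limma). The members of smallest p in the remaining lists were Cpt2 with 0.15, Hk1 with 0.52, Ssbp1 with -0.24, Mtif2 with 0.27, Bnip3l with 0.56, Phb1 with 0.12 and Vdac3 with 0.50, with adjusted p between 0.366 and 0.833 (limma). The medians of these lists in that comparison ran between -0.03 and 0.10, against 0.01 over all probes.

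Of 14 endothelial markers 1 was measured, the VEGF receptor gene Kdr, so the labelled cell type could be checked against this gene alone. Kdr ran between 7.31 and 8.91 in the stenotic branch, 6.50 and 7.34 in the NIH vein, 5.87 and 6.29 in the femoral artery, and 5.83 and 7.74 in the venous-flow vein. In the femoral artery it lay close to the floor. It was 1.95 ± 0.46 higher in the stenotic branch than in the femoral artery (adjusted p = 0.0465, limma), and 0.72 in the value table (adjusted p = 1.0). Which of the calls of Slc16a3 and Kdr remain without single arrays was not recorded. In this comparison only 1 of all probes was called without stenotic branch 3, and only 1 without femoral artery 3. At least 1 of these calls was therefore lost in each case. Ndufv1 was called lower in the stenotic branch and in the NIH vein, each against the femoral artery. A link of Kdr or Slc16a3 with Ndufv1 was not tested.

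Of 14 leukocyte markers 3 were measured, with mean levels of 6.10 to 6.55 in the stenotic branch, 5.95 to 6.41 in the NIH vein and 6.35 to 6.60 in the femoral artery. Of 10 red cell and platelet markers 5 were measured, at 5.98 to 6.25, 5.89 to 6.39 and 6.08 to 7.14 in the same groups. Smooth muscle (2 of 10) stayed between 5.76 and 6.29 on these arrays. Skeletal muscle (2 of 12) ran between 6.39 and 6.93 in the stenotic branch, 6.39 and 7.37 in the NIH vein and 6.81 and 7.56 in the femoral artery. Fibroblast markers (2 of 9), as the mean of both probes, ran between 6.02 and 8.42, 5.97 and 8.82, and 6.46 and 7.36 in these groups. Dcn, 1 of these 2 markers, lay near the floor, with a mean of 5.88 in the NIH vein and 5.94 on the other 12 arrays. The higher means therefore came from the other marker. The part of these cell types in the Ndufv1 difference was not tested.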

How the data were processed

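RNA of 17 laser-captured regions was measured on single-colour arrays. The deposited scanner output holds signal and local background per spot as intensity, not normalized, per the file headers. The deposited value table holds log2 values for 10000 of 41372 gene spots (9879 probes), and its sorted columns differ by 2.43e-05 on average, so the arrays are quantile normalized; the sources used here do not say how the authors chose these spots, or which scanner and software they used. Symbols came from a RefSeq table by accession (3117 spots, 31.2%, matched 1 symbol). Scanner intensity, with the sample each file is deposited under, was background-corrected (normexp, offset 50), log2 transformed, quantile normalized and averaged per probe with limma 3.58.1 in R 4.3.3. A fit of 4 group means over all 17 arrays gave 6 contrasts, and a fit of 2 means set the NIH vein against the other 12 arrays. P-values are 2-sided with Benjamini-Hochberg adjustment over 9879 probes, and called means an adjusted p under 0.05. The number of arrays limits the precision.

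Named are called members, the brightest and the most different (NIH vein against the other 12 arrays) probe of each role, the 3 smallest p per comparison, up to 3 symbols with several probes, and from other lists the called genes and the smallest p. Members and lists were chosen with earlier results of these data known. Arrays with equal replicate numbers correlated between -0.609 and 0.321 after group means were removed, so the numbers were not used as pairs. On simulated data with 9879 probes the fits recovered 68% to 77% of probes changed by 1 on the log2 scale and 88% to 94% of those changed by 2, with 2 to 15 false calls. The simulated noise was normal and independent between arrays, with no arrays standing apart, no shared rats and no floor. These rates therefore check the fit and do not give its power for the members here. The alternatives were the value table, the table's sample names on scanner values, subtraction of the background, median scaling, probes of above-median level, 1 probe per name, the 2 compared groups alone, a replicate block, and each array left out; leaving out the arrays that stood apart was chosen after seeing the data. Tables and figures were made in Python 3.11.15 (numpy 2.4.6, pandas 2.3.3, matplotlib 3.10.9).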

Additional observations from a re-analysis of the deposited data

Results flagged for a closer look

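Among the named members, the 2 groups of 5 and 6 arrays were searched for a single array far from its group. Such an array was found in 8 of 48 searches, where chance flags about 1 in 20 groups of normal values. The share over all probes was not computed, and some genes entered with a pair of probes. The 8 are therefore described and not read as a trait of the members. Named members were chosen in part by their levels on these arrays, so the searches are not independent of that choice. The 8 members near the floor on stenotic branch 3 and NIH vein 1 gave 4 more, of which 3 restate how these members were chosen and are no evidence about the array: on NIH vein 1 Atp5mg was lowest at 5.81 (others 8.24 to 8.97), Atp5po at 5.93 (8.31 to 9.05) and Cox7a2 at 5.89 (8.80 to 9.27). The other was Atp5po, highest on venous-flow vein 5 at 9.86 (7.87 to 8.55). Of the named members, Mrpl17 was highest on NIH vein 1 at 6.04 (5.81 to 5.86). In the NIH vein, replicate 5 was lowest for Sdha at 7.41 (8.25 to 8.57), and replicate 2 for the brighter Atp5mc2 probe at 8.36 (8.75 to 8.81). In the venous-flow vein, replicate 5 was highest for Tomm20 at 8.82 (7.66 to 8.07). Both Ndufa10l1 probes were lowest on venous-flow vein 3, at 5.78 (6.24 to 6.45) and 5.85 (6.27 to 6.42). On venous-flow vein 4 the dimmer Atp5mc2 probe was highest at 6.56 (5.78 to 5.87), and the dimmer Timm8b probe at 6.19 (5.95 to 6.03).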

How the results depend on the processing

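Over 31 differences of named members and 897 alternative values, 830 kept their direction and their side of the threshold, 22 lost a call, 17 gained one and 28 reversed. Only the Ndufv1 differences from the femoral artery were called as reported, so all 22 losses fell on these. For every other difference, keeping its side of the threshold meant staying uncalled. All 28 of these reversals occurred with the sample names of the value table. Given below as value table, scanner values with the table's names, and value table without the arrays that stood apart (the last chosen after seeing the data), the stenotic branch minus venous-flow vein differences were 0.55, 0.38 and 0.33 for Ndufv1, -0.47, -0.44 and -0.18 for Mrpl37, and -0.27, -0.17 and -0.17 for Mrpl17. The stenotic branch minus NIH vein differences were 1.55, 1.20 and 1.53 for Ndufv1, -0.11, -0.07 and -0.04 for Mrpl17, 0.26, 0.19 and 0.10 for Timm10b, and 0.01 for Uqcrh in the value table alone. The femoral artery minus venous-flow vein differences were -0.38, -0.31 and -0.36 for Cox6a2, 0.17, 0.12 and 0.51 for Tomm20, and 0.05, 0.04 and 0.27 for Sdhc. The cause of the unlike names was not tested. The median over the members changed sign more widely. For the NIH vein minus venous-flow vein (0.01) it was -0.01 with the background subtracted, and -0.01, -0.06, -0.05 and -0.04 without NIH vein 2, NIH vein 3, venous-flow vein 3 and venous-flow vein 4. For the stenotic branch minus venous-flow vein (-0.08) it was 0.31, 0.24 and 0.30 with the table's names, and 0.16 and 0.03 without stenotic branch 1 and venous-flow vein 5. For the stenotic branch minus NIH vein (-0.02) it was 0.12, 0.07 and 0.07 with the table's names, and 0.05 without stenotic branch 1. For the femoral artery minus venous-flow vein (-0.15) it was 0.02 in the value table without the arrays that stood apart, and for the stenotic branch minus femoral artery (0.08) it was -0.05 without these and femoral artery 1.

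The count of called members for the NIH vein against the femoral artery, 1 as reported, was 0 in the value table, with the table's names on scanner values, under median scaling, with the replicate block, in the value table without both arrays that stood apart, and without both of these and femoral artery 1, and 6 among probes of above-median level. For the stenotic branch against the femoral artery, 1 as reported, it was 0 under each of the settings that gave 0 above, 0 with both arrays left out before or after the quantile step, and 1 among probes of above-median level. For the stenotic branch against the venous-flow vein it was 1 with the background subtracted and 1 among probes of above-median level, where 0 is reported. Leaving out 1 array at a time gave 0 to 3 members for the NIH vein and 0 to 6 for the stenotic branch against the femoral artery, 0 to 1 for each against the venous-flow vein, and 0 to 0 in the other comparisons. Over all probes, leaving out 1 array gave 3 to 26 calls for the NIH vein against the other 12 arrays (13 reported), 1 to 284 for the NIH vein (4) and 8 to 179 for the stenotic branch (40) against the venous-flow vein, 1 to 11 for the stenotic branch against the NIH vein (9), 0 to 0 for the femoral artery against the venous-flow vein (0), and 0 to 555 for the NIH vein (229) and 1 to 533 for the stenotic branch (184) against the femoral artery. With the replicate block Ndufv1 gave -1.66 for the NIH vein (adjusted p = 0.139, limma) and -2.18 for the stenotic branch (adjusted p = 0.0701, limma) against the femoral artery, and the numbers share only a name. Over 26 alternatives with the scanner names, Ndufv1 ran between -2.40 and -1.45 (adjusted p 0.00822 to 0.206, limma, called in 20) for the NIH vein and between -2.77 and -1.66 (adjusted p 0.00869 to 0.23, limma, called in 16) for the stenotic branch against the femoral artery.

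Limits remain. Only 31.2% of spots carry a symbol here, so a member without a matching accession was not analysed. Members near the floor show small differences. Groups of 3 arrays leave wide intervals, and regions that share a rat can make p-values too small.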
